A study of Mus musculus with 6 samples.

Results

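The small heat shock proteins are a family of chaperones that bind unfolding proteins without using ATP, and this account covers 6 of their genes together with Bag3, the co-chaperone that joins several of them to Hsp70. The genes Hspb1, Cryab, Hspb8, Hspb2, Hspb6, Hspb7 and Bag3 were followed in a mouse undifferentiated pleomorphic sarcoma line, a tumour cell line of soft tissue labelled as metastatic. They are 7 of the 55471 genes in the count table, and all 7 were among the 13044 genes with enough counts to be tested. The set was chosen by gene family, with the knockout and control counts of these same libraries already in view. The differences of the 7 genes between knockout and control are therefore given as a description, with no p-value, and the counts of these genes called by the fits over all genes are given once, as a description too.

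Total RNA was sequenced from 3 libraries with the genotype label Setd1a Knock Out and 3 with the label WT, numbered 1 to 3 in each group and grown in the same serum-containing medium. Setd1a encodes a catalytic subunit of a COMPASS complex, which methylates histone H3 near active promoters. The titles also carry a tag that divides the libraries as the genotype does, so the tag and the knockout cannot be told apart. The labels name neither the clones nor the guide used, nor whether replicates were separate cultures, so the spread between replicates may be technical.

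Library totals lay between 17749533 and 18272622 counts. Levels are given as CPM, the counts of a gene scaled to a common TMM-adjusted library total. Setd1a itself had 53.2, 68.7 and 56.3 CPM in the knockout libraries, against 71.0, 75.3 and 73.5 CPM in the control libraries (log2 change -0.30 ± 0.12 SE; edgeR adjusted p = 0.426). The exact permutation p, two-sided, was 0.1, and 3 against 3 can go no lower. The counts do not resolve exons, and other annotated genes cover 52.3% of its exonic bases, so this level does not check the deletion. All 11 mesenchymal markers examined were tested, and they summed to 7075 to 8445 CPM in the knockout and 8418 to 8713 CPM in the control, with Vim at 5429 CPM in the knockout and 6146 CPM in the control. Skeletal muscle markers summed to 2.58 to 3.91 CPM in the knockout and 2.38 to 3.01 CPM in the control, with Ckm, Myog and Myod1 at 0 counts in every library. Lens markers summed to at most 1.05 CPM in any library, with Cryaa and Mip at 0 counts throughout.

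Small heat shock proteins share a conserved alpha-crystallin domain, and some of them assemble into large oligomers. The family holds damaged proteins in a form that Hsp70 can later refold. Several members are transcribed at high rates when heat shock factors bind their promoters. Heat shock factors recognise inverted repeats of a short unit, read as GAA or, on the other strand, TTC. Hspb1 and Cryab are found in many tissues and protect actin and intermediate filaments, while Hspb2, Hspb6 and Hspb7 are best known from heart and skeletal muscle. Hspb8 pairs with Bag3, which passes damaged filament proteins to the autophagy machinery.

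Of the windows found, which did not include Cryab or Hspb2, only those of Hspb1 and Hspb6 held a pair of such units. The promoters of Hspb1 and Hspb6 are shown for that reason and because these genes differed in opposite directions. The promoter of Hspb8 is shown beside them as one without a match. Each sequence is the 250 bases before a RefSeq transcription start in GRCm38.p6, and capitals mark matches to GAANNTTC, the motif of a pair of units, which reads the same on both strands. The reverse order, TTCNNGAA, was searched as well.
Hspb1 (chr5:135887669-135887918, plus strand): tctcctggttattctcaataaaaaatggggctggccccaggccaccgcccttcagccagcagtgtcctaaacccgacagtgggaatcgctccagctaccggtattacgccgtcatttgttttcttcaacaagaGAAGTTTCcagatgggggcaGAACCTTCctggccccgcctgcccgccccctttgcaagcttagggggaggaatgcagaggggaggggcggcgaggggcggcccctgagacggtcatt
Hspb6, second start (chr7:30553051-30553300, plus strand): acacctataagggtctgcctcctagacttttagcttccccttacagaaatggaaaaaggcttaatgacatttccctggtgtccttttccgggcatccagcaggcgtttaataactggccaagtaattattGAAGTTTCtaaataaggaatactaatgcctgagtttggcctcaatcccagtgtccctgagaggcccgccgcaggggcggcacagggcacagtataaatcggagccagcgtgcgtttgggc
Hspb8 (chr5:116422865-116423114, minus strand): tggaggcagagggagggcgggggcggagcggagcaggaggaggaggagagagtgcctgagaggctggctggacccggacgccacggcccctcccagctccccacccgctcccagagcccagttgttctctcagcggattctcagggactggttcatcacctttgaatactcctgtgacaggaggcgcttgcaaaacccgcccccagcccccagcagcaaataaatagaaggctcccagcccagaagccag

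The Hspb1 window held 2 matches to GAANNTTC, at positions -117 to -110 and -97 to -90 from the start. The second Hspb6 window held 1 match, at -120 to -113, and also the TATA box letters TATAAA at -29 to -24. Of 32851 windows of the same length in the table, 12.8% held a match to GAANNTTC or TTCNNGAA, 1.46% held 2 or more matches, and 12.4% held TATAAA on either strand. RefSeq windows were matched for 5 of the 7 genes, 6 windows in all. No window was matched for Cryab or Hspb2, so their promoters were not searched. The windows of Hspb8, Hspb7 and Bag3 and the first Hspb6 window held neither motif, which says only that these letters are not in those windows. The Bag3 window held 18 CpG dinucleotides, the first and second Hspb6 windows 15 and 8, the Hspb1 window 12, the Hspb8 window 10 and the Hspb7 window 5, against a median of 6 over all windows.

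Hspb1, Cryab, Hspb8 and Hspb2 were higher in the knockout libraries in all 3 replicate pairs. Hspb6 and Bag3 were lower in all 3, with Bag3 close to its control level. The share of all genes with the same direction in all 3 pairs was not computed, so nothing is read from this. Hspb1 stood at 2.30-fold the control level, Cryab at 1.27-fold, Hspb8 at 1.30-fold, Hspb6 at 0.733-fold and Bag3 at 0.915-fold. Hspb2 and Hspb7 had too few counts for a precise ratio. The plot of CPM by library shows all 7 genes.

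**Figure D1:**
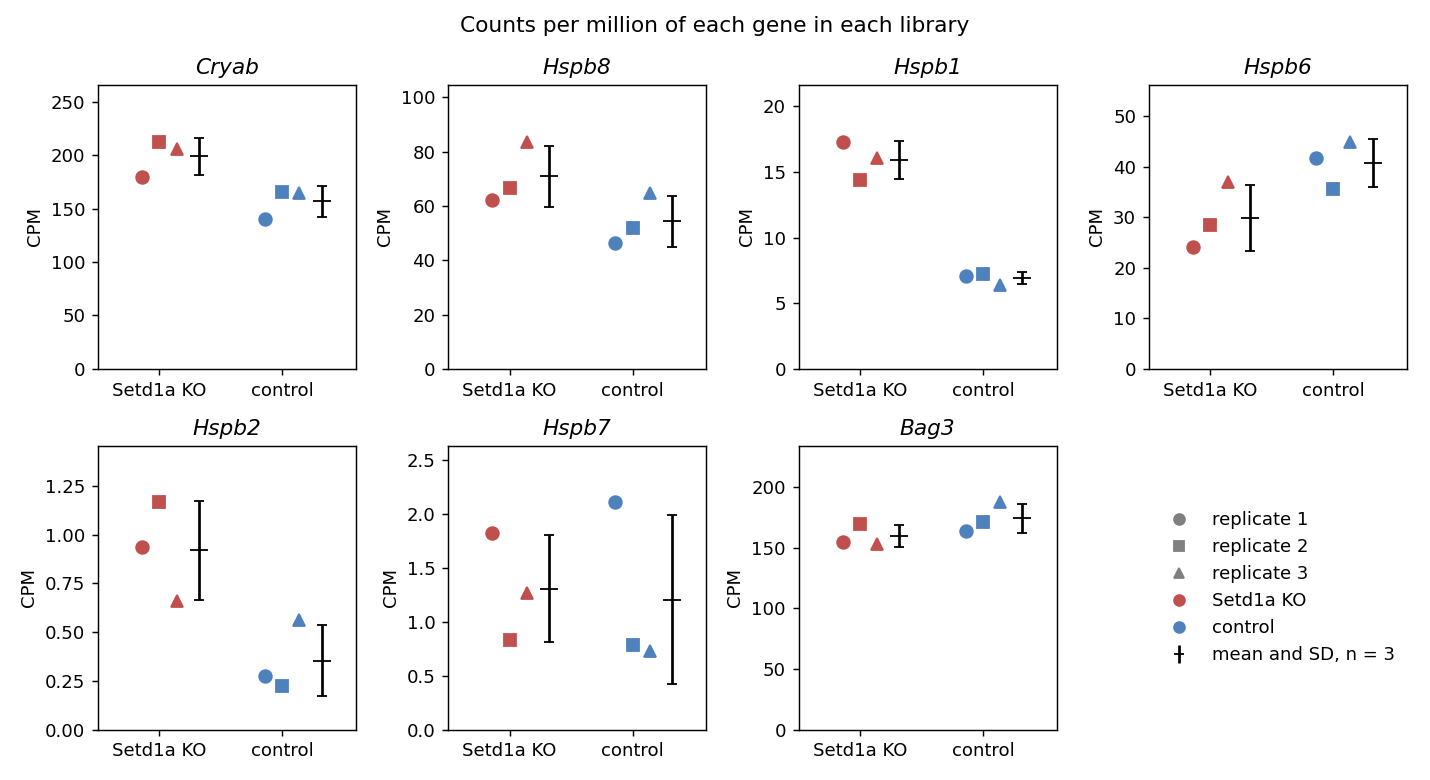
CPM of each of the 7 genes in each library, with Setd1a knockout libraries on the left of each panel and control libraries on the right. Symbols mark replicate numbers and black bars the mean and SD of 3 libraries. Hspb1 lies between 14.4 and 17.3 CPM in the knockout and between 6.39 and 7.26 CPM in the control.

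Hspb1 (ENSMUSG00000004951, chromosome 5, 135887919 to 135889563 of GRCm38, plus strand) encodes the small heat shock protein called HSP25 in mouse, which caps actin filaments and is phosphorylated under stress. It held 314, 259 and 292 counts in knockout replicates 1, 2 and 3, against 128, 130 and 114 counts in control replicates 1, 2 and 3. As CPM these were 17.3, 14.4 and 16.1 in the knockout and 7.08, 7.26 and 6.39 in the control. The lowest knockout library held about 1.98 times the highest control library. The log2 change from edgeR's fit over all genes was 1.20 ± 0.15 (SE, n = 3 per group). The replicate pairs gave 2.44-fold, 1.98-fold and 2.51-fold.

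Cryab (ENSMUSG00000032060, chromosome 9, 50751325 to 50756636, plus strand) encodes alpha-B-crystallin, a chaperone of desmin and other filaments first known from the lens. It had 179, 212 and 205 CPM in the knockout replicates, against 140.3, 165 and 165 CPM in the control replicates. Every knockout library lay above every control library. The 3 pairs gave nearly the same ratio, 1.28-fold, 1.29-fold and 1.245-fold, for a log2 change of 0.34 ± 0.11 (SE, n = 3 per group). Cryab was lowest in replicate 1 of both groups.

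Hspb8 (ENSMUSG00000041548, chromosome 5, 116408491 to 116422864, minus strand) encodes the Bag3-bound small heat shock protein. It had 62.3, 66.8 and 83.6 CPM in the knockout replicates, against 46.5, 51.9 and 64.7 CPM in the control replicates. The groups overlapped, since control replicate 3 lay above knockout replicate 1. Within each group replicate 3 was highest, and the ratios within pairs were close to each other at 1.34-fold, 1.29-fold and 1.29-fold. The log2 change was 0.38 ± 0.15 (SE, n = 3 per group), and the SE was 0.08 with the replicate number as a block.

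Hspb6 (ENSMUSG00000036854, chromosome 7, 30552178 to 30555443, plus strand) encodes a small heat shock protein of muscle that is phosphorylated by cyclic nucleotide-dependent kinases. It had 24.2, 28.6 and 37.0 CPM in the knockout replicates, against 41.8, 35.6 and 45.0 CPM in the control replicates. Knockout replicate 3 lay above control replicate 2, so the groups overlapped. The pairs gave 0.579-fold, 0.804-fold and 0.821-fold, lowest in pair 1, and the log2 change was -0.45 ± 0.16 (SE, n = 3 per group). Of its 2299 exonic bases, 202 are shared with Proser3, Gm38670 or Lin37, and the strand setting of the counting is not given in the sources used here.

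Hspb2 (ENSMUSG00000038086, chromosome 9, 50751078 to 50752354, minus strand) encodes a muscle small heat shock protein that binds the myotonic dystrophy protein kinase. It held 17, 21 and 12 counts in the knockout libraries, against 5, 4 and 10 counts in the control libraries. Summed over libraries this was 50 counts in the knockout (95% Poisson interval 37.1 to 65.9) and 19 in the control (11.4 to 29.7), intervals that cover counting error only. The ratio moved between pairs, at 3.38-fold, 5.22-fold and 1.18-fold, and the log2 change was 1.36 ± 0.44 (SE, n = 3 per group). Hspb2 and Cryab lie on opposite strands with overlapping spans, and 252 exonic bases are common to both, 30.2% of those of Hspb2 and 17.0% of those of Cryab. Reads of the shared bases could not be told apart without the strand setting, and their part in the Hspb2 counts was not tested.

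Hspb7 (ENSMUSG00000006221, chromosome 4, 141420779 to 141425311, plus strand) encodes the cardiovascular small heat shock protein. It held 33, 15 and 23 counts in the knockout libraries, against 38, 14 and 13 counts in the control libraries. Replicate 1 was highest in both groups, and the pairs went both ways, at 0.864-fold, 1.07-fold and 1.74-fold. The log2 change of 0.11 ± 0.45 (SE, n = 3 per group) had an error larger than itself, and it lay between -0.19 and 0.78 when 1 library was left out.

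Bag3 (ENSMUSG00000030847, chromosome 7, 128523616 to 128546981, plus strand) had 154.9, 169.8 and 153 CPM in the knockout replicates, against 164, 171 and 187 CPM in the control replicates. The groups overlapped, and the log2 change was -0.13 ± 0.10 (SE, n = 3 per group). All 3 pairs lay below 1, at 0.945-fold, 0.992-fold and 0.819-fold. The SD of Bag3 was 5.73% of the mean in the knockout, the lowest of the 7 genes there, and 6.81% in the control, where that of Hspb1 was 6.65%.

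**Figure D2:**
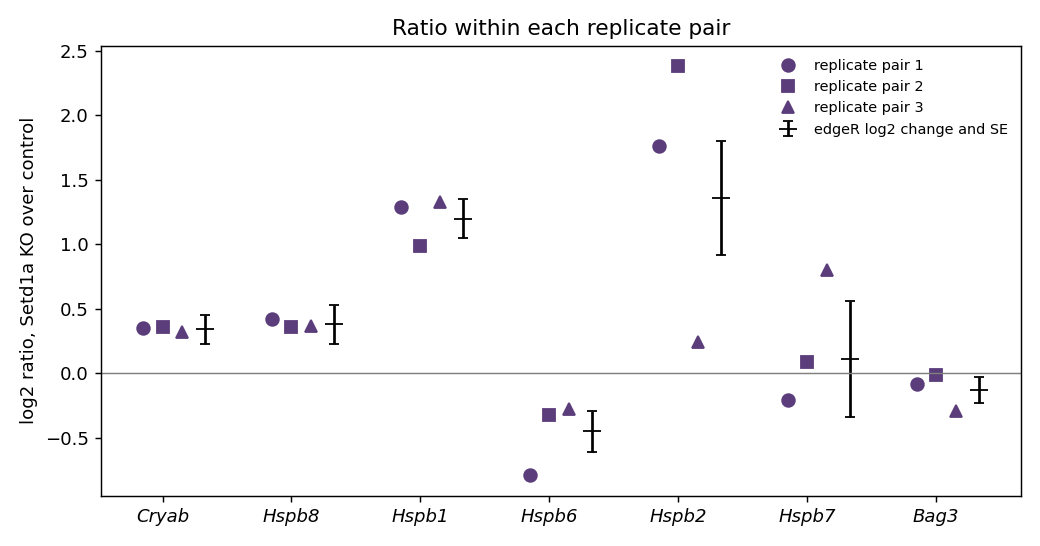
Log2 ratio of Setd1a knockout to control within each replicate pair for the 7 genes, with edgeR's log2 change and its SE from the fit without pairing as black bars. Cryab and Hspb8 show nearly the same ratio in every pair, Hspb6 and Bag3 lie below 0 in every pair, and Hspb2 and Hspb7 spread widely.

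Across all genes, edgeR's quasi-likelihood test without pairing called 0 of the 7 genes, against 0% of the 13044 genes tested, at a Benjamini-Hochberg adjusted p under 0.05. Before adjustment, 718 genes were higher and 588 lower in that test at a p under 0.05, 10% of all genes tested. With the replicate number as a block, edgeR called 3 of the 7 higher, Hspb1, Cryab and Hspb8, where 1.43% of all genes tested were called higher, and 0 of the 7 lower, where 0.851% were. DESeq2 without pairing called Hspb1 among the 7, where it called 1.11% of the genes to which it gave an adjusted p, and it gave none to Hspb2. Without pair 1 the blocked test called the same 3 genes, where 5.45% of all genes were called in either direction. Without pair 2 it called Hspb1 and 1.47% of all genes, and without pair 3 it called 0 of the 7 and 0 of all genes. The test without pairing called Hspb1 when knockout replicate 1 was left out, where 0.235% of all genes were called, and when no filter on low counts was used, where 0.293% were. Groups did not overlap for 3 of the 7 genes, Hspb1, Cryab and Hspb2, with the knockout higher, where 7.49% of all genes tested had all knockout libraries above all control libraries, and for 0 of the 7 with the knockout lower, where 7.77% did. The median log2 change of the 7 genes was 0.34, and that of all genes tested was 0.00. Since the set was chosen with these values known, nothing is read from these counts.

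Per length, the family was dominated by Cryab. In CPM per kilobase of exon (RPKM), Cryab averaged 135 ± 11.8 in the knockout and 106 ± 9.65 in the control (SD, n = 3 each). Bag3 followed with 62.2 ± 3.56 RPKM in the knockout and 67.96 ± 4.63 RPKM in the control, and Hspb8 with 36.4 ± 5.77 and 27.9 ± 4.78 RPKM in the same order of groups (SD, n = 3 each). These 3 levels did not overlap within either group. Hspb2 averaged 1.10 RPKM in the knockout and 0.424 RPKM in the control, and Hspb7 averaged 0.471 and 0.435 RPKM in knockout and control. In the control the ranges of Hspb2 and Hspb7 overlapped, so their order is not fixed there.

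Hspb1 lay above Hspb6 per length in knockout replicates 1 and 2, and below it in knockout replicate 3 and in every control library. In the knockout, Hspb1 had 16.8, 13.9 and 15.6 RPKM and Hspb6 had 10.5, 12.4 and 16.1 RPKM, so their ranges overlapped. In the control, Hspb1 had 6.87, 7.04 and 6.20 RPKM and Hspb6 had 18.2, 15.5 and 19.6 RPKM, with Hspb6 above Hspb1 in every library. The ratio of Hspb1 to Hspb6 per length was 1.23 ± 0.33 in the knockout and 0.383 ± 0.069 in the control (SD, n = 3 each). Dividing by the longest transcript in place of all exons gave 17.1 RPKM for Hspb1 and 15.1 RPKM for Hspb6 in the knockout, and 7.43 and 20.6 RPKM for the same genes in the control.

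**Figure D3:**
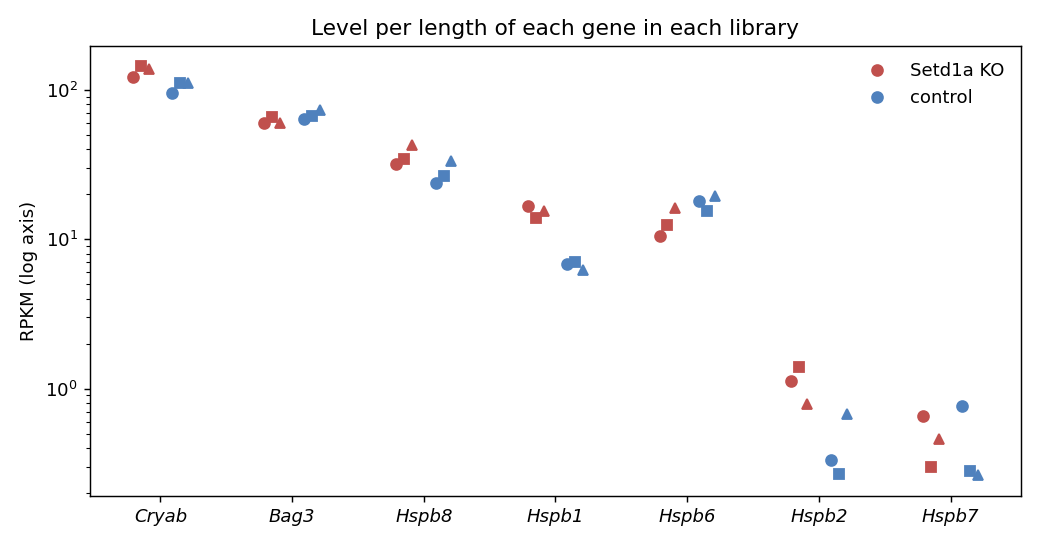
Level per length of each of the 7 genes in each library, as CPM per kilobase of exon on a log axis, with Setd1a knockout libraries left of control libraries for each gene. Hspb1 lies below Hspb6 in the control libraries, and the ranges of these genes overlap in the knockout libraries.

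Among the 6 small heat shock proteins, per-length levels summed to 182, 206 and 215 RPKM in the knockout replicates, against 145, 161 and 171 RPKM in the control replicates. Cryab made up 66.98% ± 2.57 of that sum in the knockout and 66.6% ± 2.29 in the control (SD, n = 3 each), and Hspb8 18.05% ± 1.74 and 17.4% ± 1.66 in knockout and control. The shares of these genes thus overlapped between the groups. Hspb1 made up 7.74% ± 1.29 in the knockout and 4.24% ± 0.57 in the control, while Hspb6 made up 6.43% ± 0.93 in the knockout and 11.2% ± 1.495 in the control (SD, n = 3 each). The per-length ratio of Bag3 to its partner Hspb8 was 1.89, 1.94 and 1.39 in the knockout replicates, against 2.68, 2.51 and 2.20 in the control replicates, with no overlap.

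The remaining small heat shock protein genes were at or near 0. Hspb3, a muscle member, Hspb9, a testis member, and Cryaa, the lens alpha-A-crystallin, had 0 counts in every library, and Odf1, a sperm tail protein of the family, had 1 count in all. A count of 0 covers only the depth of these libraries. Hspb11, an intraflagellar transport protein grouped with the family by name, averaged 4.32 ± 1.12 CPM in the knockout and 4.61 ± 0.27 CPM in the control (SD, n = 3 each; edgeR adjusted p = 0.959).

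The heat-inducible chaperones that heat shock factors switch on alongside the family were not called. Of 25 such genes 24 were tested, and edgeR called 0 higher and 0 lower with or without the block, as did DESeq2, with 1 gene at an unadjusted p under 0.05 without pairing. Their log2 changes lay between -0.29 and 0.09, with a median of -0.05, 8 above 0 and 16 below. Groups did not overlap for 3 of the 24, Fkbp4, Hspa8 and Stip1, with the knockout lower, where 7.77% of all genes tested did so. With the knockout higher there were 0, where 7.49% of all genes tested did so. Hspa1b, an inducible Hsp70, had 27.1, 27.2 and 20.1 CPM in the knockout libraries, against 20.9, 28.1 and 21.1 CPM in the control libraries. Its reads may be shared with the nearly identical Hspa1a, which averaged 2.59 ± 0.27 CPM in the knockout and 2.43 ± 0.07 CPM in the control (SD, n = 3 each). Dnajb1, the Hsp40 partner of inducible Hsp70, averaged 65.9 ± 3.31 CPM in the knockout and 67.4 ± 4.26 CPM in the control. Fkbp4, an Hsp90 co-chaperone, had the smallest p of this list, with 598, 582 and 528 CPM in the knockout and 647, 742 and 704 CPM in the control (log2 change -0.29 ± 0.11 SE; edgeR adjusted p = 0.418 without the block and 0.0947 with it). It was called lower in the blocked test when pair 1 was left out. The 7 most abundant genes of the list, Hsp90ab1, Hspa8, Hsp90aa1, Hspd1, Serpinh1, Stip1 and Hspa4, had log2 changes between -0.14 and 0.02 that did not pass the test.

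**Figure D4:**
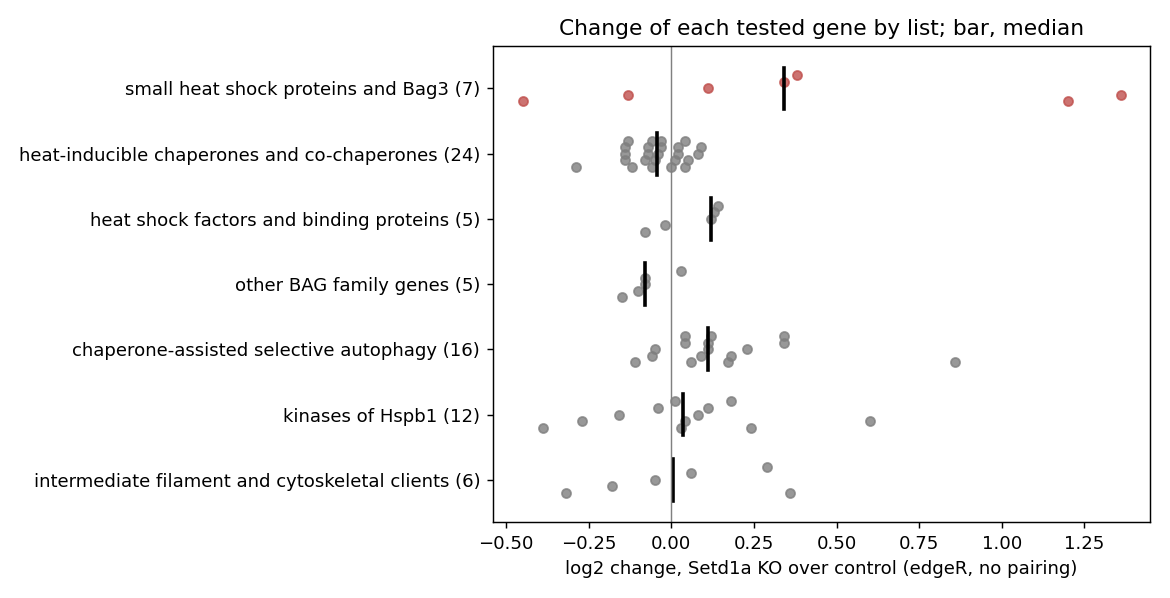
Log2 change of each tested gene, Setd1a knockout over control, by list, with the 7 genes of the family and Bag3 on top. Points are genes, black bars are medians and the number of genes stands in parentheses. The 24 heat-inducible chaperones lie between -0.29 and 0.09, while Hspb1 and Hspb2 lie above 1.

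The transcription factors of the heat shock response were likewise not called. Hsf1, the main heat shock factor, had 143, 160 and 111 CPM in the knockout libraries, against 145, 145 and 131 CPM in the control libraries (log2 change -0.02 ± 0.13 SE). Of 7 heat shock factors and binding proteins 5 were tested, edgeR called 0 in either fit, DESeq2 called 0, and 0 reached an unadjusted p under 0.05 without pairing. Hsf2 averaged 29.3 ± 4.28 CPM in the knockout and 30.9 ± 3.77 CPM in the control, and Hsf4, a factor of the lens, averaged 1.78 ± 0.13 CPM in the knockout and 1.61 ± 0.38 CPM in the control (SD, n = 3 each). Hsbp1, which binds heat shock factor trimers, and Hspbap1, which binds the Hspb1 protein, had log2 changes of 0.12 and 0.13.

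The other BAG genes stayed near their control levels. Of the 5 genes 0 were called by edgeR in either fit or by DESeq2, and 0 reached an unadjusted p under 0.05 without pairing. Their log2 changes lay between -0.15, for Bag5, and 0.03, for Bag4. Bag2 averaged 92.0 ± 5.92 CPM in the knockout and 97.4 ± 7.95 CPM in the control, and Bag6 377 ± 68.6 and 404 ± 20.7 CPM in the same order of groups (SD, n = 3 each). Bag1 averaged 132 ± 10.2 CPM in the knockout and 139 ± 12.5 CPM in the control.

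Among genes of chaperone-assisted selective autophagy, the route by which Bag3 and Hspb8 clear damaged filamin, 1 of 16 was called, Synpo. Synpo, an actin-binding synaptopodin of the family whose muscle member binds Bag3, had 9.36, 10.8 and 14.96 CPM in the knockout libraries, against 6.14, 5.58 and 7.57 CPM in the control libraries. Every knockout library lay above every control library. It rose in the blocked edgeR test (log2 change 0.86 ± 0.21 SE without the block; adjusted p = 0.0237 with the block and 0.208 without) and in DESeq2 (adjusted p = 0.0274). Without pair 3 the blocked test called 0 genes of the whole table, Synpo included. Synpo2, the muscle member, was not called in either fit or by DESeq2. It had 83, 47 and 43 counts in the knockout libraries and 58, 50 and 27 in the control libraries, which overlapped. Its log2 change was 0.34 ± 0.34 (SE), with an edgeR adjusted p of 0.849 without the block and 0.426 with it. The 1 call of 16 stands beside 1.43% of all genes called higher in the blocked test, and the median log2 change of the list was 0.11. At an unadjusted p under 0.05 the blocked test had 3 of the list higher, Synpo, Sqstm1 and Flnc, against 1297 of 13044 genes tested. Flnc, the muscle filamin, had 681, 946 and 599 CPM in the knockout libraries and 407, 715 and 641 CPM in the control libraries, which overlapped. Its edgeR adjusted p was 0.696 without the block and 0.191 with it. Sqstm1, the autophagy receptor p62, averaged 499 ± 19.0 CPM in the knockout and 424 ± 55.9 CPM in the control (SD, n = 3 each). Its edgeR adjusted p was 0.559 without the block and 0.172 with it.

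Of 12 genes for kinases that phosphorylate Hspb1 or act upstream of them, 0 were called by edgeR in either fit or by DESeq2. Without pairing 0 had an unadjusted p under 0.05. With the block 1 was higher and 1 lower at that level, against 1297 higher and 1255 lower of all 13044 genes tested. Mapkapk5 averaged 1.69 ± 0.12 CPM in the knockout and 1.12 ± 0.20 CPM in the control (SD, n = 3 each), without overlap. Its edgeR adjusted p was 0.4996 without the block and 0.221 with it, and 56.5% of its exonic bases are shared with other genes. Prkd1, protein kinase D, averaged 6.09 ± 1.16 CPM in the knockout and 7.97 ± 0.71 CPM in the control. Its edgeR adjusted p was 0.537 without the block and 0.163 with it. Of the cytoskeletal clients, 6 of 9 were tested and 0 were called in either fit or by DESeq2. Without pairing 0 had an unadjusted p under 0.05, and with the block 1 was higher and 1 lower at that level. Nes, the intermediate filament nestin, had 158, 172 and 169 CPM in the knockout libraries and 102, 150 and 155 CPM in the control libraries. Its edgeR adjusted p was 0.558 without the block and 0.119 with it. Lmna, which encodes the nuclear lamins, averaged 1297 ± 209.7 CPM in the knockout and 1615 ± 249 CPM in the control (SD, n = 3 each). Its edgeR adjusted p was 0.544 without the block and 0.152 with it.

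Genes beside the family members were examined because their position had no part in the choice. Proser3 and Lin37 share exonic bases with Hspb6, so their counts may not be separate from those of a member. Ywhag also belongs to the autophagy list above. Within 100 kb of the start of a member, 19 other genes were tested, and 0 were called by edgeR in either fit or by DESeq2, with 2 at an unadjusted p under 0.05 without pairing. That is close to the 10% of all genes tested that reached it, and 0 of all genes were called without pairing, so these counts do not set the neighbours apart. DESeq2 gave no adjusted p to Fam131c and Gm49396. Ywhag, the nearest tested gene to Hspb1 at 46.7 kb, averaged 426 ± 45.8 CPM in the knockout and 414 ± 41.1 CPM in the control (SD, n = 3 each; log2 change 0.04 ± 0.12 SE). Ssc4d, the other one, had a log2 change of -0.38 at 2.10 CPM in the knockout and 2.73 CPM in the control. The genes around Cryab and Hspb2, Dlat, Ppp2r1b, Alg9, Dixdc1 and Fdxacb1, had log2 changes between 0.00 and 0.11, and the clone-named 1110032A03Rik had -0.42 ± 0.28 (SE; edgeR adjusted p = 0.707 without the block and 0.255 with it).

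Proser3 starts 121 bases from Hspb6 on the opposite strand and shares exonic bases with it. It had 10.5, 10.8 and 14.5 CPM in the knockout libraries, against 17.1, 12.9 and 19.3 CPM in the control libraries, a log2 change of -0.47 ± 0.19 (SE; edgeR adjusted p = 0.450 without the block and 0.0808 with it). Its pair ratios of 0.612, 0.835 and 0.748 stood beside 0.579, 0.804 and 0.821 for Hspb6. Whether reads of one gene were counted for the other was not tested. Lin37, on the other side of Hspb6, averaged 12.7 ± 0.28 CPM in the knockout and 14.96 ± 1.18 CPM in the control, and Kmt2b, Cox6b1, Psenen and Arhgap33 had log2 changes between -0.28 and 0.00. The predicted gene Gm49396, with 6 to 15 counts in a library, had 0.29 ± 0.40 (SE; edgeR adjusted p = 0.915). Fam131c, within 100 kb of Hspb7, was at 0.958 CPM in the knockout and 0.390 CPM in the control (edgeR adjusted p = 0.381). Zbtb17 near Hspb7 and Tial1 and Inpp5f near Bag3 had log2 changes of -0.03, 0.04 and 0.09.

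The genes whose levels followed Hspb1 most closely over the 6 libraries were Cgas, Qpct, Ccl2, Ripk3 and Syn1. Likeness was the root mean square difference between log2 CPM profiles, each centred on its own mean, over 9593 genes with a mean of at least 5 CPM. These log2 values included edgeR's prior count of 2, which narrows the spread of genes with few counts. The difference was 0.181 for Cgas, which encodes a sensor of cytosolic DNA, 0.182 for Qpct, a glutaminyl cyclase, 0.198 for Ccl2, a monocyte chemokine, 0.214 for Ripk3, a necroptosis kinase, and 0.224 for Syn1, a synaptic vesicle protein, against a median of 0.626 over all genes compared. Cgas had 16.0, 15.9 and 17.3 CPM in the knockout libraries, against 8.69, 8.10 and 8.97 CPM in the control libraries. The family members were farther from Hspb1, between 0.444 for Hspb2 and 0.865 for Hspb6, with Cryab at 0.460. Hspb2 and Hspb7 lay below the limit of 5 CPM, where the prior count weighs most. The place of Hspb2 before Cryab is therefore not fixed. Since Hspb1 differed between the groups, genes with a like difference lie near it by construction.

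The libraries also differed in other ways. Interferon-induced genes, 18 of which were tested, had a median log2 ratio of -0.83 in pair 1, 1.98 in pair 2 and 2.68 in pair 3. Hspb1 gave 1.29, 0.99 and 1.33 in the same pairs, and Cryab gave 0.35, 0.36 and 0.32. Hspb8 gave 0.42, 0.36 and 0.37, and Hspb6 gave -0.79, -0.32 and -0.28. The part of the interferon-induced genes in the differences of the family was not tested. Without pairing, edgeR called 0 of the 18 and 15 were higher at an unadjusted p under 0.05, against 5.5% of all genes tested. With the block it called 2 higher, Oasl1 and Ifih1, against 1.43% of all genes, and these were higher in pair 1 as well, with log2 ratios of 0.47 and 0.25. Transcripts of the mitochondrial genome took 3.48% to 3.91% of the counts in the knockout libraries and 2.50% to 3.03% in the control libraries, and their part in the differences of the family was not tested. Cardiac markers, among the tissues rich in Hspb2, Hspb6 and Hspb7, summed to 2.78 to 4.13 CPM in the knockout and 2.12 to 2.60 CPM in the control (exact two-sided permutation p = 0.1). Tnnt2 led them, Myh6, Actc1, Myl2 and Mybpc3 were at 0 counts in every library, and their part in the family's differences was not tested. Smooth muscle markers summed to 186 to 277 CPM in the knockout and 196 to 278 CPM in the control (exact two-sided permutation p = 1). Macrophage markers summed to 9.64 to 15.9 CPM in the knockout and 8.74 to 9.77 CPM in the control, and endothelial markers to 2.997 to 4.85 CPM in the knockout and 1.38 to 2.75 CPM in the control. Since these are bulk libraries, fewer cells with a transcript and less of it per cell cannot be told apart.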

How the data were processed

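Counts were analysed from a single table. The authors deposited raw counts of reads for each Ensembl gene, with no normalization. STAR, featureCounts, DESeq and the mm10 build are named, per the submitters' processing notes. Versions, annotation, strand setting and the handling of reads with several matches were not given in the sources used here. Columns were matched to samples by the name in the titles. Symbols, positions and exon lengths came from GENCODE M21 (GRCm38). Of 55471 identifiers 55230 matched, and the others took no more than 0.00138% of a library.

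The main fit was edgeR 4.0.16 (R 4.3.3) with TMM scaling, edgeR's low-count filter and its quasi-likelihood test; p-values were two-sided and adjusted by Benjamini and Hochberg's method over 13044 genes, with a threshold of 0.05. The SE of a log2 change was derived from the F statistic. CPM and RPKM were computed from the counts. Alternatives were a replicate block, DESeq2 1.42.0, other low-count filters, another gene length and leaving out libraries. Knockout and control libraries of the same number deviated together from their group means (correlations of 0.15, 0.464 and 0.383, all above the limit of 0.1). Libraries of unlike number gave correlations between -0.446 and 0.053. The numbers were therefore taken as pairs in the block and in the pair ratios. The main fit, and the SEs given without mention of the block, did not use the pairs. The pairing comes from the data, since no label says what a number stands for. Steps were tested on simulated counts.

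The members, gene lists and the rule for named genes were chosen with earlier results of these data known. Named genes were the 7 members, the other small heat shock protein genes, up to 4 genes of each list with the smallest p, tested neighbours within 100 kb other than predicted genes and clones, the 5 genes most like Hspb1, and Setd1a. Other chaperone genes, Synpo2, a clone and a predicted gene were named after their values were seen.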

Additional observations from a re-analysis of the deposited data

How the results depend on the processing

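The 0 genes called without pairing became 298 with the replicate block, 133 with DESeq2, 74 with no filter on low counts, 0 with a minimum mean of 5 CPM, and between 0 and 31 when 1 library was left out, the 31 without knockout replicate 1. With the block, leaving out pair 1 gave 714, pair 2 gave 194 and pair 3 gave 0 genes. In the list of chaperone-assisted selective autophagy, 0 became 1 with the block, with DESeq2, and with the block without pair 1 or pair 2, each time Synpo. Among heat-inducible chaperones 0 became 1, Fkbp4, and among cytoskeletal clients 0 became 1, Lmna, with the block without pair 1. Of the interferon-induced genes, 0 were called in the fit without pairing, 2 with the block, 1 with DESeq2, 8 with no filter, between 0 and 6 when 1 library was left out, 18 with the block without pair 1 and 3 without pair 2. In the other lists, and among genes within 100 kb of a member, the count stayed at 0 under all of these alternatives.

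The log2 changes of the members kept their direction under all alternatives run, except that of Hspb7. When 1 library was left out, Hspb1 lay between 1.15 and 1.28, Cryab between 0.27 and 0.42, Hspb8 between 0.25 and 0.53, Hspb2 between 1.13 and 1.85, Hspb6 between -0.63 and -0.30, Hspb7 between -0.19 and 0.78 and Bag3 between -0.17 and -0.07. With the block and 1 pair left out, Hspb1 lay between 1.13 and 1.32, the latter without pair 2. Hspb2 lay between 0.94 and 2.03, the latter without pair 3. The block changed the call of no gene named from the lists other than Synpo, Oasl1 and Ifih1, and of no tested neighbour. The 5 genes most like Hspb1 were not called without pairing. With the block each was called, where 1.43% of all genes tested were called higher. DESeq2 also called each, where it called 1.11% of the genes given an adjusted p. They were chosen for a profile like that of Hspb1, so these calls follow largely from the choice. The causes of the shifts between settings were not tested. Depth limits Hspb2 and Hspb7, whose libraries held between 4 and 38 counts.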
